A study of Mus musculus with 14 samples.

Results

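The synaptotagmins described here were Syt1, Syt2, Syt3, Syt4, Syt5, Syt7, Syt9, Syt11, Syt12 and Syt17. They were chosen by symbol, and every probe set annotated with 1 of these 10 genes and no other gene was taken, which gave 24 probe sets out of 45037 tested and 10 genes out of 18193. All 24 entered every comparison, since no filter on low values was used. RNA of hippocampus and heart from untreated C57/BL6 mice was hybridized to 14 single-colour Affymetrix arrays. Pup hippocampus and pup heart came from tissue dissected at 7 days of age, with 3 biological replicates and 1 array each, and the sex of the pups was not given. Adult hippocampus and adult heart RNA came from male mice 10 weeks old and was purchased, with 2 biological replicates and 2 technical arrays each, which were averaged to give 10 biological samples. Whether the adult replicates came from separate animals is not stated, so the p-values measure only how far these samples spread, and part of that may be technical. A second label field counts all 4 adult arrays of a tissue as biological replicates, and this reading was run as an alternative. Because all pup RNA was prepared from dissected tissue and all adult RNA was bought, age and RNA source cannot be told apart. The study's methods also name isolated mRNA for the pups and total RNA for the adults. As described there, RNA type goes with age as well.

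Synaptotagmins are membrane proteins of vesicles and the plasma membrane, most of which carry a transmembrane segment and a tandem pair of C2 domains. In many members these domains bind Ca2+, phospholipids and the SNARE proteins that drive membrane fusion, which lets a rise in Ca2+ trigger release of vesicle contents. Syt1, Syt2 and Syt9 are the fast Ca2+ sensors of synaptic vesicle release, and in forebrain neurons Syt1 is the main one. Syt3 and Syt7 bind Ca2+ with high affinity, while Syt4, Syt11 and Syt12 bind it weakly or not at all. Hippocampal neurons are densely covered with synapses, whereas the heart contains release sites of autonomic nerve fibres and secretory muscle cells.

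The values were the deposited log2 probe set values, with a maximum of about 16.0 on every array. A difference of 1 on this scale is a doubling. Values near 16.0 lie close to the top of every array, where differences can be compressed, and values were not compared with a background level. A level was not read as the amount of a transcript, and the brightest probe set of a gene, the one with the highest mean over the samples, served only to choose 1 probe set for each gene. In bulk tissue a lower value can reflect fewer cells of a type or less RNA per cell, which cannot be told apart. Each difference was tested with limma over all probe sets, with Benjamini-Hochberg adjusted p under 0.05 as the threshold, and "higher", "lower", "rose" and "fell" are used only for differences past it. The technical arrays of an adult sample differed by over 1 in 21 of 96 synaptotagmin pairs (21.9%), against 13.3% of pairs over all probe sets, and by a median of 0.37 against 0.35.

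Tissue markers separated hippocampus from heart as labelled. Snap25, a SNARE protein of the neuronal plasma membrane, was between 9.72 and 11.23 in the 5 hippocampus samples and between 6.66 and 8.06 in the 5 heart samples. Myh6, the cardiac myosin heavy chain, was between 14.28 and 15.79 in heart, between 6.83 and 7.08 in adult hippocampus and between 8.85 and 11.68 in pup hippocampus. Actc1, cardiac actin, reached 14.76, 12.49 and 10.31 in pup hippocampus replicates 1, 2 and 3. The mean over 12 heart muscle genes was between 9.28 and 10.99 in pup hippocampus, 8.93 and 9.05 in adult hippocampus, 14.15 and 14.74 in pup heart, and 13.13 and 13.47 in adult heart. Pup hippocampus replicate 1 had the highest of these heart muscle levels among hippocampus samples. The mean over 18 hybridization control probe sets was 13.15 in pup hippocampus and 13.16 in pup heart against 10.8 in adult hippocampus and 10.73 in adult heart, so age also went with this control signal. The part of either difference in the results below was not tested.

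For the 10 synaptotagmins described here, the probe sets that differed between tissues were all higher in hippocampus. In pups, 8 of 24 probe sets of 5 genes (Syt1, Syt4, Syt7, Syt11 and Syt17) were higher in hippocampus, against 7.52% of all probe sets, and 0 were lower, against 6.77%. In adults, 7 of 24 probe sets of 4 genes (Syt1, Syt4, Syt7 and Syt11) were higher in hippocampus, against 10.3% of all probe sets, and 0 were lower, against 11.9%. By limma 1 probe set was lower in hippocampus at an unadjusted p under 0.05 in pups and 0 in adults, and by the methods' t-test, the test the study's methods name, 0 passed in that direction at either age. The median difference over the 24 probe sets was 0.42 in pups and 0.17 in adults, beside -0.10 and -0.06 over all probe sets. By the methods' t-test with the same adjustment, 4 probe sets were higher in pup hippocampus and 0 in adult hippocampus, but over all 45037 probe sets that test called 1938 in pups and 1 in adults, so its adult count says nothing about synaptotagmins.

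**Figure D1:**
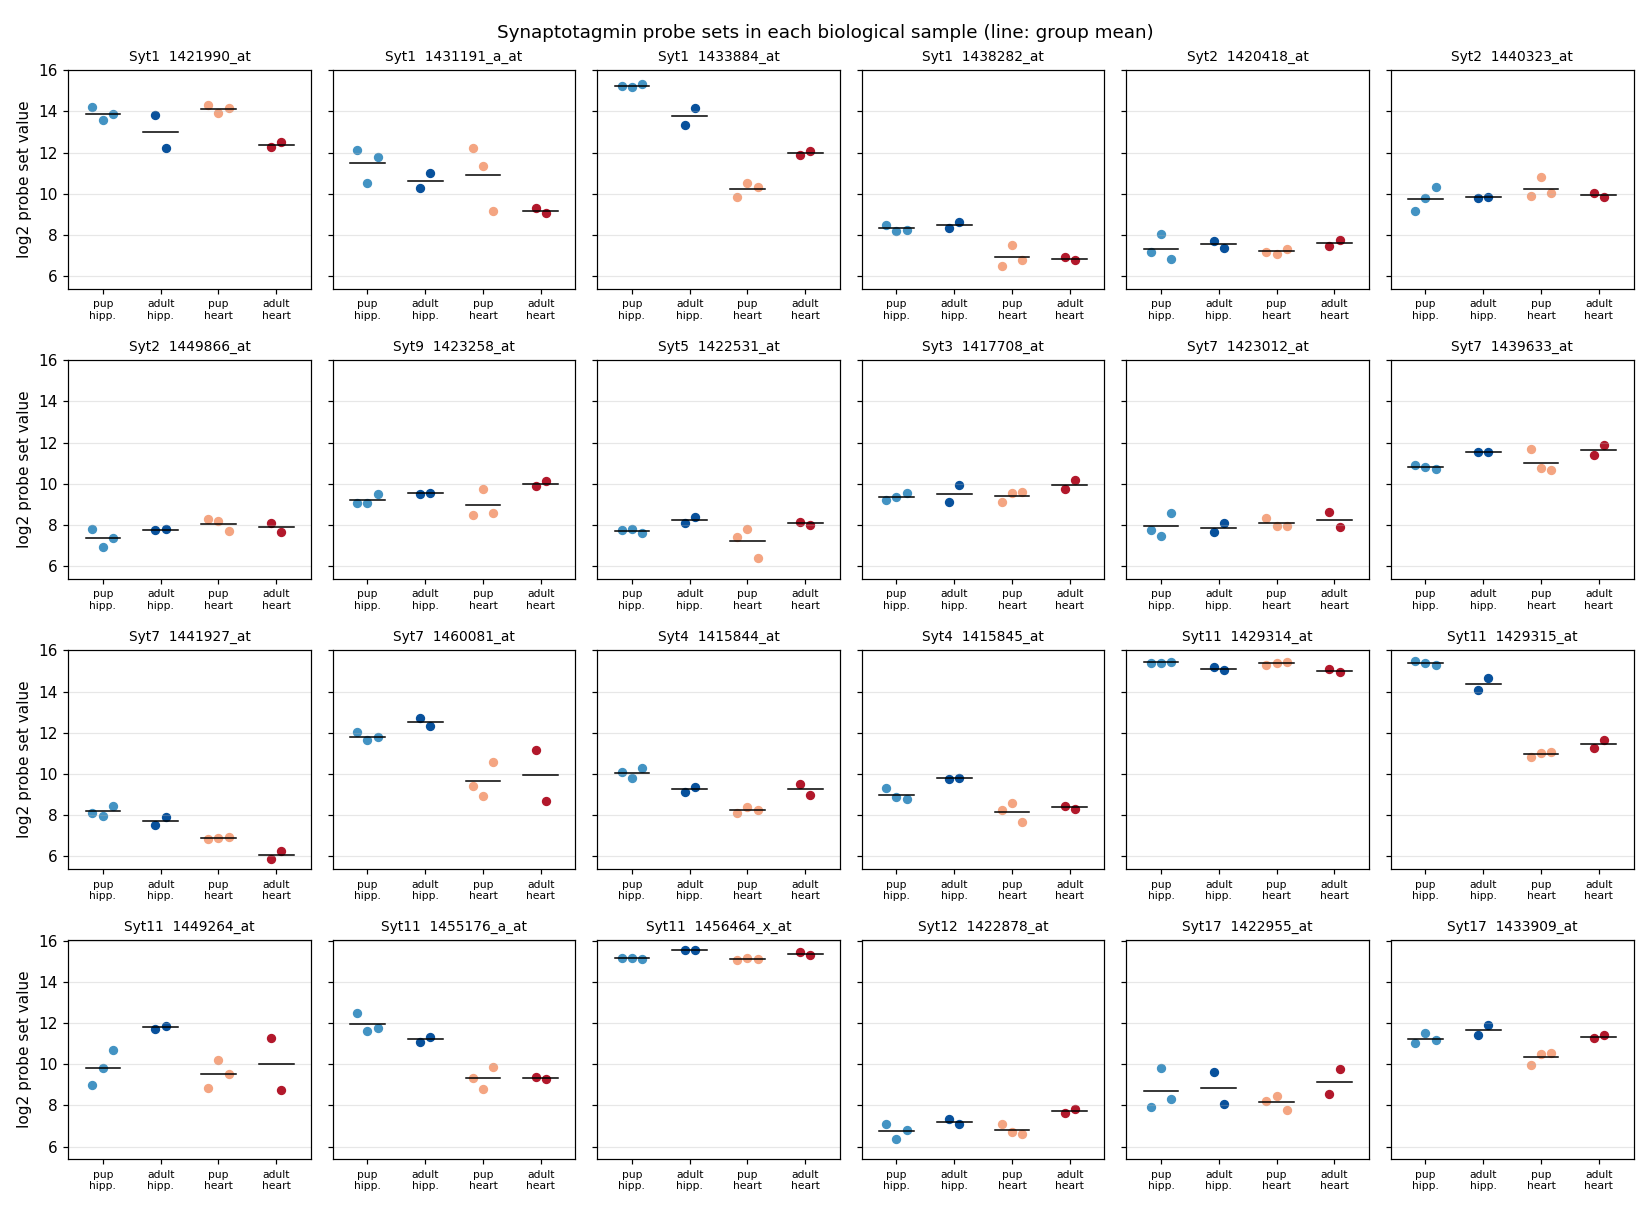
Each panel is 1 probe set, with its log2 value on the vertical axis, a point for each biological sample and a line at each group mean for pup hippocampus, adult hippocampus, pup heart and adult heart. Syt1 1433884_at and Syt11 1429315_at separate hippocampus (13.35 and above, and 14.09 and above) from heart (12.06 and below, and 11.67 and below), while no probe set of Syt2, Syt3, Syt5 or Syt9 passed the threshold in any comparison.

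Syt1, the main Ca2+ sensor of fast transmitter release in the forebrain, was measured by 4 probe sets, and 1433884_at showed the largest difference of the 24 between pup tissues. Its log2 values were 15.23, 15.16 and 15.32 in pup hippocampus, 13.35 and 14.16 in adult hippocampus, 9.85, 10.53 and 10.31 in pup heart, and 11.89 and 12.06 in adult heart. All hippocampus samples lay above all heart samples, the 3 pup hippocampus samples were the highest and the 3 pup heart samples the lowest. The difference between hippocampus and heart was 5.00 ± 0.27 (SE) in pups (32.1-fold, limma adjusted p = 3.17e-06) and 1.78 ± 0.33 in adults (3.44-fold, adjusted p = 0.00493). Both stayed past the threshold without any single sample, with differences from 4.81 to 5.15 in pups and from 1.38 to 2.19 in adults over all alternatives.

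The Syt1 probe set 1438282_at also separated the tissues, though every biological sample (technical arrays averaged) lay below the median of its arrays for it. It was 8.51, 8.21 and 8.25 in pup hippocampus, 8.33 and 8.63 in adult hippocampus, 6.49, 7.51 and 6.77 in pup heart, and 6.92 and 6.79 in adult heart. It was higher in hippocampus by 1.40 ± 0.28 in pups (adjusted p = 0.00807) and by 1.62 ± 0.34 in adults (adjusted p = 0.00875), and the adult call was lost without adult hippocampus replicate 2 or without adult heart replicate 2 (adjusted p from 0.000103 to 0.0891 over all alternatives).

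The brightest Syt1 probe set, 1421990_at, did not separate the tissues. Its values were 14.19, 13.58 and 13.88 in pup hippocampus, 13.82 and 12.21 in adult hippocampus, 14.33, 13.91 and 14.14 in pup heart, and 12.25 and 12.53 in adult heart. Hippocampus and heart overlapped at both ages, with a difference of -0.24 in pups (95% interval -1.09 to 0.60) and 0.62 in adults (-0.41 to 1.66). For 1431191_a_at the difference was 0.58 in pups (-0.99 to 2.14) and 1.45 in adults (-0.47 to 3.36). The 4 Syt1 probe sets thus gave different pictures of the same gene, and the part of each transcript or of cross-hybridization in this was not tested.

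**Figure D2:**
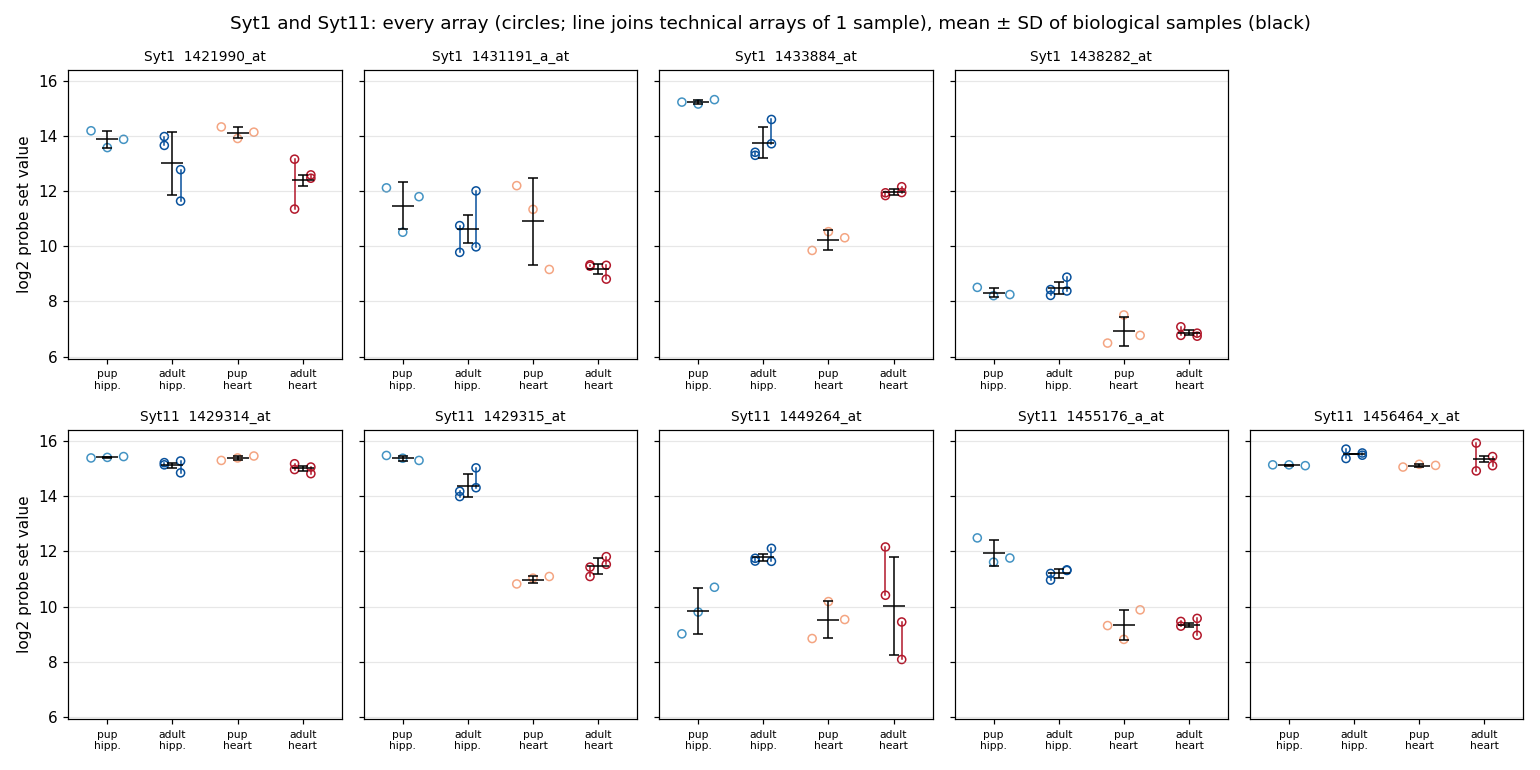
Log2 values of the 4 Syt1 probe sets (top) and 5 Syt11 probe sets (bottom) on every array by group. Circles are arrays, coloured lines join the technical arrays of 1 adult sample, and black marks give the mean ± SD of biological samples (n = 3 for pups and n = 2 for adults). Of the Syt1 probe sets 1433884_at and 1438282_at, and of the Syt11 probe sets 1429315_at and 1455176_a_at, have all hippocampus samples above all heart samples.

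Syt11, which is closely related to Syt4 and is known for a role in endocytosis and vesicle trafficking, had in 1429315_at the second largest of the 24 differences between pup tissues and the largest between adult tissues. This probe set was 15.48, 15.38 and 15.30 in pup hippocampus, 14.09 and 14.67 in adult hippocampus, 10.82, 11.03 and 11.09 in pup heart, and 11.26 and 11.67 in adult heart. Every hippocampus sample lay above every heart sample. Hippocampus was higher by 4.40 ± 0.23 in pups (21.2-fold, adjusted p = 2.78e-06) and by 2.91 ± 0.28 in adults (7.53-fold, adjusted p = 0.000258), and neither call was lost without any single sample.

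Probe set 1455176_a_at of Syt11 gave the same direction. It was 12.49, 11.61 and 11.76 in pup hippocampus, 11.08 and 11.32 in adult hippocampus, 9.31, 8.81 and 9.88 in pup heart, and 9.37 and 9.26 in adult heart, with no overlap between tissues. The differences were 2.62 ± 0.32 in pups (adjusted p = 0.000468) and 1.88 ± 0.40 in adults (adjusted p = 0.0087), and the adult call was lost without adult hippocampus replicate 2 or without adult heart replicate 2 (adjusted p from 8.06e-05 to 0.0786 over all alternatives).

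The brightest Syt11 probe set, 1429314_at, was 15.39, 15.41 and 15.44 in pup hippocampus, 15.18 and 15.06 in adult hippocampus, 15.30, 15.39 and 15.46 in pup heart, and 15.08 and 14.94 in adult heart. These values, and those of 1456464_x_at between 15.06 and 15.54, stood near the top of the arrays in both tissues. The tissue difference was 0.03 in pups (-0.38 to 0.45) and 0.11 in adults (-0.40 to 0.62) for 1429314_at. For 1456464_x_at it was 0.02 (-0.39 to 0.43) and 0.19 (-0.32 to 0.69). Probe set 1449264_at varied widely, from 8.76 to 11.29 between the 2 adult heart samples, and its tissue difference was 0.32 in pups (-1.12 to 1.75) and 1.76 in adults (0.00 to 3.52).

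Because probe sets of Syt1 and Syt11 both separated the tissues, the sequence before their transcription starts is shown. RefSeq promoter windows (build GRCm38.p6) were used for 5 of the 10 genes, Syt1, Syt2, Syt3, Syt9 and Syt11, and member windows on 1 chromosome were left out. The 250 bases before each start were searched on both strands for 5 motifs. The motifs were the cAMP response element TGACGTCA, the GC box GGGCGG, the CAAT box with the letters CCAAT, the TATA box TATAAA and the E-box CACGTG, none of which overlaps another in these windows, and capitals mark their matches. Syt1 has 2 windows and Syt11 has 1, all on the minus strand.
Syt1, chr10:109010976-109011225: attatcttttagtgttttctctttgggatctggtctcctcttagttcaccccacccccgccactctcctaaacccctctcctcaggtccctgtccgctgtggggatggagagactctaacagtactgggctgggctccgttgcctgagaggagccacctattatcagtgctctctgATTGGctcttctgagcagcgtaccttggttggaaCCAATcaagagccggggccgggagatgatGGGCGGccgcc
Syt1, chr10:109009112-109009361: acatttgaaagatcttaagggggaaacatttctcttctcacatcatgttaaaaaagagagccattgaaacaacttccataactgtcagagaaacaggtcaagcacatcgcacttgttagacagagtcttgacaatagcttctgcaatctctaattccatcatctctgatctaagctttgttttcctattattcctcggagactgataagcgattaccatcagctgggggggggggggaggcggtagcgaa
Syt11, chr3:88772600-88772849: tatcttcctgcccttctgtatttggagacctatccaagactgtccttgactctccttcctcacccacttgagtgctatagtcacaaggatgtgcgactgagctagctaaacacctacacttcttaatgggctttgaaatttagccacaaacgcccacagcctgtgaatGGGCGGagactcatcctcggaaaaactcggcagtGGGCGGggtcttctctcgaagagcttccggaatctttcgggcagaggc

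The first Syt1 window held GGGCGG starting 11 bases before the start, CCAAT starting 40 bases before it and its reverse complement starting 74 bases before it. The second Syt1 window held none of the 5 motifs. The Syt11 window held GGGCGG starting 82 and 48 bases before the start. Of 32851 windows of the same length, 32.7% held GGGCGG and 33.8% held CCAAT, so these matches are common. TATAAA was in 12.4% of windows, CACGTG in 6.02% and TGACGTCA in 1.55%, and the Syt1 and Syt11 windows held none of them. The GC content was 56.4% and 42.8% in the Syt1 windows and 51.2% in the Syt11 window, against a median of 52.4% over all windows. It was higher in the windows of Syt9 (80.4%), Syt2 (76.0% and 66.4%) and Syt3 (62.4%). The windows of Syt2 and Syt9 also held GGGCGG or its reverse complement, and a Syt2 window held the reverse complement of CCAAT. A relation between these windows and the tissue differences was not tested.

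Syt7, a high-affinity Ca2+ sensor of asynchronous release and synaptic facilitation that also acts in lysosome and dense-core vesicle fusion, had 4 probe sets. Probe set 1441927_at was 8.12, 7.97 and 8.46 in pup hippocampus, 7.53 and 7.93 in adult hippocampus, 6.85, 6.88 and 6.95 in pup heart, and 5.88 and 6.28 in adult heart. Every biological sample (technical arrays averaged) lay below the median of its arrays for this probe set. The tissues did not overlap, and hippocampus was higher by 1.29 ± 0.23 in pups (adjusted p = 0.00437) and by 1.65 ± 0.28 in adults (adjusted p = 0.00322), in both cases also without any single sample.

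Probe set 1460081_at of Syt7 was 12.03, 11.63 and 11.79 in pup hippocampus, 12.73 and 12.33 in adult hippocampus, 9.44, 8.95 and 10.59 in pup heart, and 11.18 and 8.70 in adult heart. The hippocampus samples were close together and the heart samples spread over more than 2 log2 units, without overlap. Hippocampus was higher by 2.16 ± 0.59 in pups (adjusted p = 0.0374) and by 2.59 ± 0.72 in adults (adjusted p = 0.0303). The adult value rested on the heart samples, since it was 1.35 and no longer past the threshold without adult heart replicate 2 and 3.83 without adult heart replicate 1, and the call was also lost without either adult hippocampus sample. The pup call was lost without any of 7 single samples, namely the 3 pup hippocampus, 2 adult hippocampus and first 2 pup heart samples (adjusted p from 0.00905 to 0.116 over all alternatives).

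The brightest Syt7 probe set, 1439633_at, was 10.90, 10.84 and 10.70 in pup hippocampus, 11.55 and 11.57 in adult hippocampus, 11.68, 10.75 and 10.67 in pup heart, and 11.39 and 11.89 in adult heart. Its technical arrays were at 10.83 and 11.94 for adult heart replicate 1 and at 10.35 and 13.43 for replicate 2. The tissues overlapped, and the difference was -0.22 in pups (-0.88 to 0.44) and -0.08 in adults (-0.88 to 0.73). For 1423012_at it was -0.16 (-0.90 to 0.58) and -0.38 (-1.29 to 0.53).

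Syt4, a synaptotagmin of dense-core and postsynaptic vesicles with weak Ca2+ binding, had a probe set past the threshold at each age, but not the same one. Probe set 1415844_at was 10.09, 9.82 and 10.28 in pup hippocampus, 9.14 and 9.37 in adult hippocampus, 8.09, 8.38 and 8.25 in pup heart, and 9.53 and 8.98 in adult heart. Pup hippocampus lay above pup heart by 1.82 ± 0.23 (adjusted p = 0.00061), also without any single sample, while the adult samples of both tissues overlapped with a difference of 0.00 (-0.64 to 0.64). Probe set 1415845_at was 9.32, 8.87 and 8.79 in pup hippocampus, 9.77 and 9.83 in adult hippocampus, 8.28, 8.59 and 7.67 in pup heart, and 8.45 and 8.32 in adult heart. It was higher in adult hippocampus than in adult heart by 1.42 ± 0.33 (adjusted p = 0.0146), a call lost without any 1 of the 4 adult samples, and its difference in pups was 0.81 (0.21 to 1.42, adjusted p = 0.0783).

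Syt17, also called B/K protein, lacks a transmembrane segment and has been placed in Golgi and early secretory trafficking. Its brightest probe set, 1433909_at, was 11.02, 11.49 and 11.16 in pup hippocampus, 11.41 and 11.92 in adult hippocampus, 9.96, 10.50 and 10.56 in pup heart, and 11.26 and 11.40 in adult heart. The pup tissues did not overlap and hippocampus was higher by 0.89 ± 0.26 (adjusted p = 0.0457). That call was lost on leaving out any 1 of 9 samples, all but pup heart replicate 3, and under 6 of 10 other alternatives, with a difference of at least 0.70. In adults the difference was 0.34 (-0.36 to 1.04). The other Syt17 probe set, 1422955_at, spread from 7.90 to 9.83 within pup hippocampus, and its tissue difference was 0.54 (-0.73 to 1.82) in pups and -0.30 (-1.86 to 1.26) in adults.

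**Figure D3:**
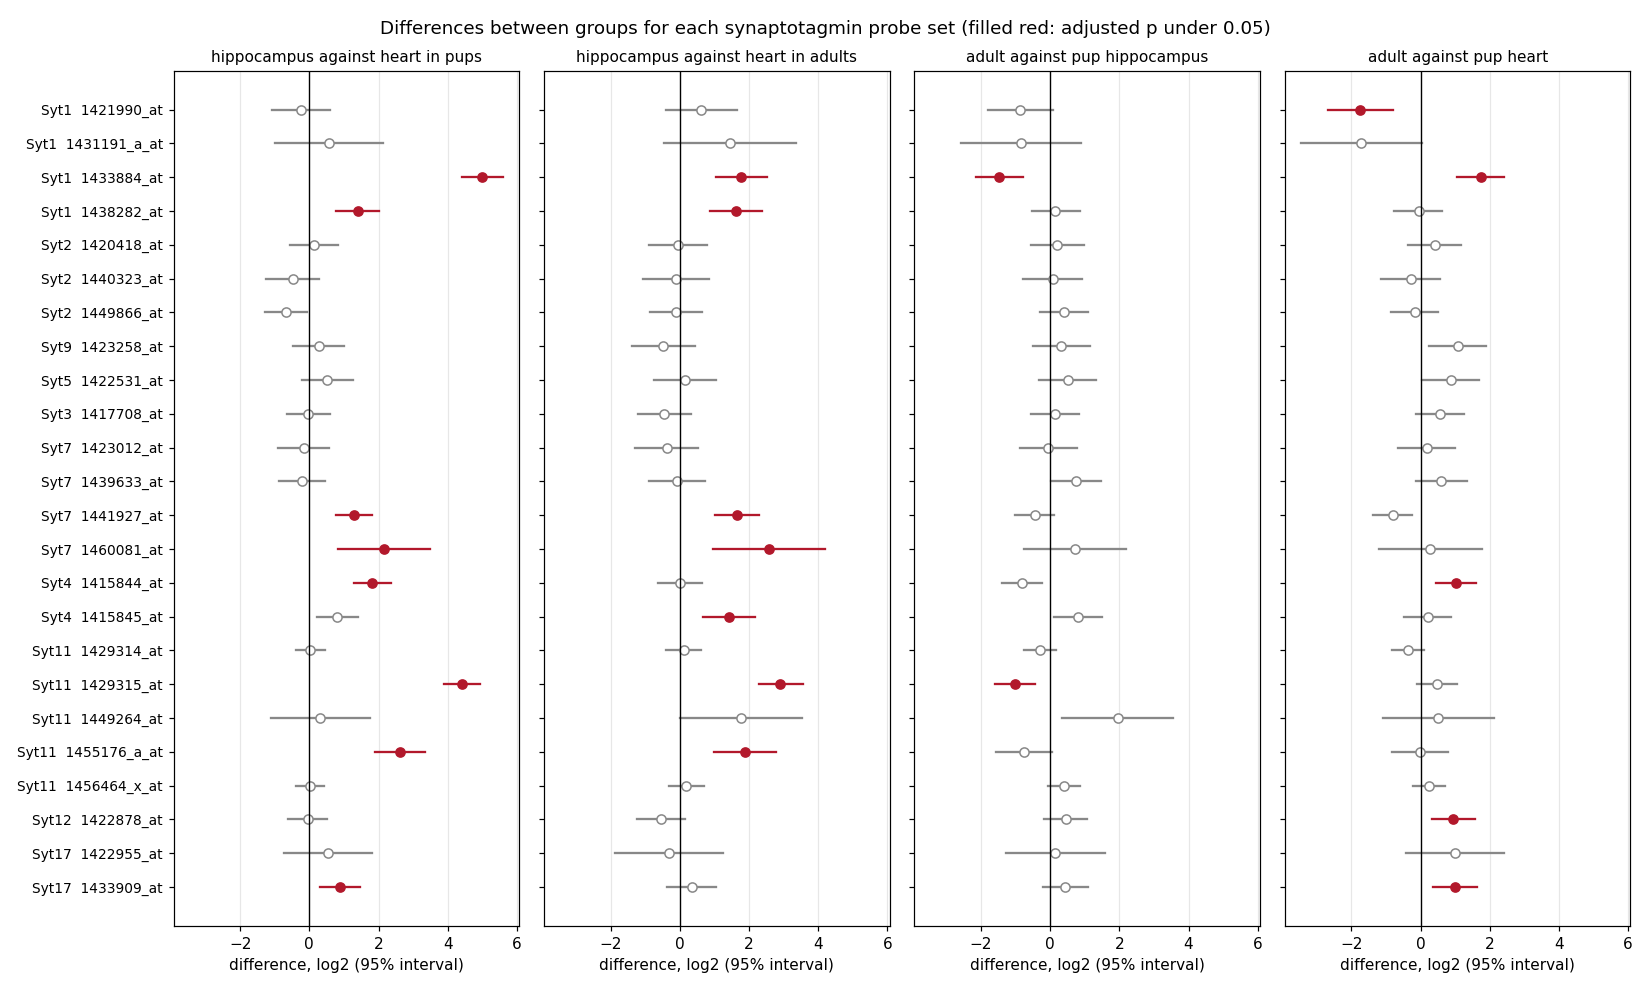
Difference in log2 value (horizontal axis) with its 95% interval for each of the 24 probe sets in 4 comparisons, filled red where the adjusted p was under 0.05. The tissue panels hold 8 and 7 red points, all to the right of 0, and the age panels hold 2 in hippocampus, both to the left, and 5 in heart, 4 to the right and 1 to the left.

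Syt2, the fast Ca2+ sensor of hindbrain and neuromuscular synapses, had 3 probe sets, and none passed the threshold between tissues or ages. The brightest, 1440323_at, was 9.15, 9.79 and 10.33 in pup hippocampus, 9.82 and 9.85 in adult hippocampus, 9.88, 10.82 and 10.02 in pup heart, and 10.06 and 9.84 in adult heart. The tissues overlapped at both ages, and the tissue difference was -0.48 in pups (-1.25 to 0.29) and -0.11 in adults (-1.05 to 0.83). For 1420418_at the difference was 0.14 (-0.55 to 0.83) and -0.05 (-0.89 to 0.79). For 1449866_at it was -0.68 (-1.29 to -0.06, adjusted p = 0.14) and -0.11 (-0.86 to 0.64).

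Syt9, a fast Ca2+ sensor of limbic and striatal neurons, was measured by 1423258_at alone. It was 9.09, 9.08 and 9.50 in pup hippocampus, 9.50 and 9.58 in adult hippocampus, 8.49, 9.76 and 8.61 in pup heart, and 9.88 and 10.16 in adult heart. The tissue difference was 0.27 in pups (-0.47 to 1.01) and -0.48 in adults (-1.39 to 0.43). In adults the 2 heart samples stood above the 2 hippocampus samples after averaging. The single arrays overlapped, from 9.21 to 10.73 in adult heart and from 9.02 to 9.99 in adult hippocampus.

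Syt3, a high-affinity Ca2+ sensor with a postsynaptic role in AMPA receptor endocytosis, was measured by 1417708_at alone. It was 9.23, 9.35 and 9.56 in pup hippocampus, 9.10 and 9.95 in adult hippocampus, 9.10, 9.55 and 9.59 in pup heart, and 9.76 and 10.18 in adult heart. The groups overlapped between tissues, with a difference of -0.03 in pups (-0.66 to 0.59) and -0.45 in adults (-1.21 to 0.32).

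Syt5, a synaptotagmin of dense-core vesicles, was measured by 1422531_at alone. It was 7.77, 7.79 and 7.63 in pup hippocampus, 8.09 and 8.39 in adult hippocampus, 7.43, 7.79 and 6.40 in pup heart, and 8.16 and 8.00 in adult heart. The tissue difference was 0.52 in pups (-0.21 to 1.26) and 0.16 in adults (-0.74 to 1.06), with overlap at both ages. Syt12, a synaptic vesicle protein whose C2 domains lack the residues for Ca2+ binding, was measured by 1422878_at alone. It was 7.09, 6.36 and 6.79 in pup hippocampus, 7.32 and 7.08 in adult hippocampus, 7.08, 6.71 and 6.62 in pup heart, and 7.65 and 7.83 in adult heart. Pup tissues overlapped with a difference of -0.05 (-0.61 to 0.50), and in adults the difference was -0.54 (-1.23 to 0.14).

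With 1 probe set for each gene, the brightest, the tissue comparison looked smaller. In pups 2 of 10 synaptotagmin genes (Syt4 and Syt17) were higher in hippocampus, against 8.24% of all genes, and 0 were lower, against 7.27%. In adults 0 were higher, against 10.0% of all genes, and 0 were lower, against 10.7%, while 0 of the 10 passed an unadjusted p under 0.05 by limma and 0 passed the methods' t-test. For Syt1, Syt7 and Syt11 the probe sets that separated the tissues were not the ones chosen by this rule, which for Syt11 took 1429314_at, near the top of the arrays.

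Between ages, 2 hippocampal probe sets fell and 4 heart probe sets rose, with Syt1 1433884_at in both. In hippocampus 0 of 24 probe sets were higher in adults, against 8.38% of all probe sets, and 2 were lower, those of Syt1 and Syt11, against 6.52%. At an unadjusted p under 0.05 by limma 3 were higher and 3 lower, and by the methods' t-test 1 was higher and 0 lower. In heart 4 probe sets were higher in adults, of Syt1, Syt4, Syt12 and Syt17, against 11.7% of all probe sets, and 1 was lower, of Syt1, against 8.32%. In heart 6 were higher and 2 lower at an unadjusted p under 0.05, and the methods' t-test called 0 of the 24 and 1 of all 45037 probe sets. At the 0.1% false discovery rate of the methods limma called 0 of the 24 with age in either tissue, 4 between pup tissues and 1 between adult tissues, and the methods' t-test called 0 in each. The median age difference over the 24 probe sets was 0.15 in hippocampus and 0.34 in heart, beside 0.12 and 0.11 over all probe sets.

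With the brightest probe set of each gene, 0 of 10 genes were higher in adult hippocampus, against 8.26% of all genes, and 0 were lower, against 7.70%, with 1 in each direction at an unadjusted p under 0.05 and 0 by the methods' t-test. In heart 3 genes (Syt4, Syt12 and Syt17) were higher in adults, against 10.9% of all genes, and 1 (Syt1) was lower, against 9.70%. In heart, median centring and range scaling of the arrays shifted the median age difference of all probe sets by -0.15 and quantile normalization by -0.11. Under the range scaling 47.5% of the probe sets past the threshold in heart were higher in adults, in place of 58.4%. It also turned the balance over all probe sets in hippocampus, where 47.6% in place of 56.2% were higher in adults, and between adult tissues, where 53.7% in place of 46.4% were higher in hippocampus. Quantile normalization turned these balances too, with 49.6% with age in heart, 48.8% with age in hippocampus and 52% between adult tissues. The heart calls of Syt12 and Syt17 were lost under both of these scalings.

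Syt1 1433884_at fell with age in hippocampus by 1.48 ± 0.30 on the log2 scale (2.79-fold, adjusted p = 0.0128). The 3 pup values lay between 15.16 and 15.32 and both adult values below them, at 13.35 and 14.16, and the difference was -1.08 and past the threshold no longer without adult hippocampus replicate 1. In heart the same probe set rose by 1.74 ± 0.30 (3.34-fold, adjusted p = 0.00436), with all adult values above all pup values, and stayed past the threshold without any single sample. The age difference in heart exceeded that in hippocampus by 3.22 ± 0.43 (adjusted p = 0.00766). That test of the difference itself also passed without any single sample, with values from 2.82 to 3.63.

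The brightest Syt1 probe set, 1421990_at, went the other way in heart. It fell by 1.74 ± 0.42 (3.33-fold, adjusted p = 0.0186), from between 13.91 and 14.33 in pup heart to 12.25 and 12.53 in adult heart, and the call was lost without either adult heart sample (adjusted p from 0.00549 to 0.125 over all alternatives). The technical arrays of adult heart replicate 1 gave 13.16 and 11.35 for this probe set. In hippocampus its difference was -0.87 (-1.81 to 0.08), and the difference between the tissues in age difference was -0.87 (-2.20 to 0.47). Probe set 1431191_a_at differed by -0.85 in hippocampus (-2.59 to 0.90) and -1.72 in heart (-3.47 to 0.03), and 1438282_at by 0.15 (-0.54 to 0.85) and -0.06 (-0.76 to 0.63). So 2 probe sets annotated to Syt1 passed the threshold in opposite directions in the same heart samples.

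Syt11 1429315_at fell with age in hippocampus by 1.01 ± 0.26 (2.01-fold, adjusted p = 0.0301), with both adult values below all pup values. That call was lost without any 1 of the 5 hippocampus samples, where the difference lay between -0.72 and -1.30. In heart the difference was 0.48 (-0.10 to 1.06), and the 2 tissues' age differences stood apart by 1.49, heart above hippocampus (0.67 to 2.31, adjusted p = 0.0568). The other Syt11 probe sets had hippocampal age differences of -0.29 (1429314_at, -0.76 to 0.17), -0.75 (1455176_a_at, -1.56 to 0.05), 0.41 (1456464_x_at, -0.05 to 0.86) and 1.95 (1449264_at, 0.35 to 3.56, adjusted p = 0.0971). Thus 3 of the 5 had negative and 2 had positive differences, and 4 did not pass the threshold.

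Syt4 1415844_at rose with age in heart by 1.01 ± 0.26 (2.02-fold, adjusted p = 0.024), from between 8.09 and 8.38 in pup heart to 9.53 and 8.98 in adult heart. That call was lost without pup heart replicate 1 or adult heart replicate 1, where the difference was 0.94 and 0.74. In hippocampus its difference was -0.81 (-1.40 to -0.23, adjusted p = 0.0655). The age difference in heart exceeded that in hippocampus by 1.83 ± 0.37 (adjusted p = 0.0304), a call lost on leaving out any 1 of 8 samples, all but pup heart replicates 2 and 3, with values from 1.55 to 2.10. The other Syt4 probe set, 1415845_at, had the opposite sign in hippocampus, 0.81 (0.12 to 1.49, adjusted p = 0.105), with both adult samples above all pup samples, and 0.20 in heart (-0.48 to 0.88).

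Syt12 rose with age in heart by 0.94 ± 0.28 (1.92-fold, adjusted p = 0.0408), and the adult values of 7.65 and 7.83 lay above all pup values. All 10 samples lay below the median of their arrays for this probe set. The call was lost under 7 of 9 other alternatives, namely both scalings, the 4 adult arrays as replicates, the random block, only the groups of the contrast, the replicate block and the methods' t-test. It was also lost on leaving out any 1 of 7 samples, namely pup hippocampus replicate 3, pup heart replicates 2 and 3 and each adult sample, with a difference of at least 0.76 over all alternatives. In hippocampus the difference was 0.45 (-0.17 to 1.07). Syt17 1433909_at rose in heart by 0.99 ± 0.29 (1.99-fold, adjusted p = 0.0365), from at most 10.56 in pups to at least 11.26 in adults after averaging. The technical arrays gave 12.04 and 10.48 for adult heart replicate 1 and 12.28 and 10.53 for replicate 2. The second array of each thus lay below the highest pup heart value. The Syt17 call was lost under 7 of 10 other alternatives, namely both scalings, the 4 adult arrays as replicates, the random block, eBayes with trend and robust, only the groups of the contrast and the methods' t-test. It was also lost without pup hippocampus replicate 3, pup heart replicate 1 or either adult heart sample, with a difference of at least 0.80 over all alternatives. In hippocampus its difference was 0.44 (-0.20 to 1.08), and that of 1422955_at was 0.15 (-1.27 to 1.58) in hippocampus and 1.00 (-0.43 to 2.42) in heart.

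The remaining members did not pass the threshold with age. Syt9 differed by 0.32 in hippocampus (-0.51 to 1.15) and by 1.07 in heart (0.24 to 1.90, adjusted p = 0.0705), where both adult values lay above all pup values, although the technical arrays of its adult heart samples gave 9.21 and 10.55 for replicate 1 and 10.73 and 9.59 for replicate 2. Syt5 differed by 0.51 (-0.31 to 1.33) and 0.87 (0.05 to 1.70, adjusted p = 0.127). Syt3 differed by 0.14 (-0.55 to 0.84) and 0.56 (-0.14 to 1.25). For the 3 Syt2 probe sets the differences ran from 0.07 to 0.39 in hippocampus and from -0.29 to 0.41 in heart. For the 4 Syt7 probe sets they ran from -0.45 to 0.75 in hippocampus and from -0.81 to 0.60 in heart. Of these, 1439633_at gave 0.75 in hippocampus (0.01 to 1.48, adjusted p = 0.155), and 1441927_at gave -0.81 in heart (-1.39 to -0.24, adjusted p = 0.0502).

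**Figure D4:**
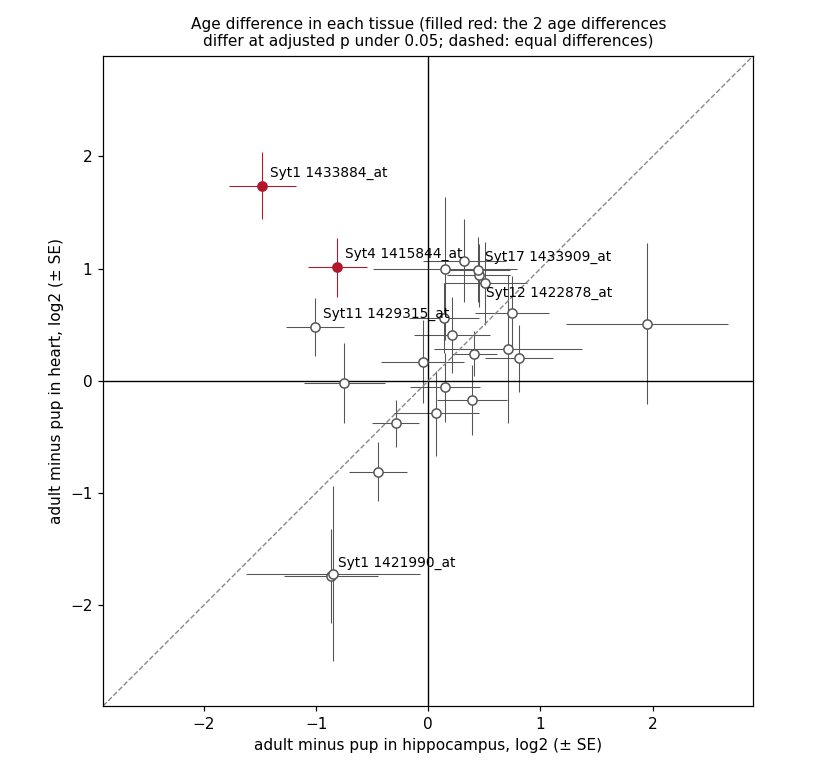
Age difference of each of the 24 probe sets in hippocampus (horizontal axis) and heart (vertical axis), both as adult minus pup in log2 units with ± SE, and a dashed line where the 2 are equal. Syt1 1433884_at (-1.48 and 1.74) and Syt4 1415844_at (-0.81 and 1.01) are filled because the test of the difference between tissues passed.

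In the test of whether the age difference depended on tissue, 2 of 24 probe sets passed, Syt1 1433884_at and Syt4 1415844_at. Both had a larger value in heart, against 2.37% of all probe sets, and 0 had a larger value in hippocampus, against 1.18%. At an unadjusted p under 0.05 by limma 3 and 0 passed. The methods' t-test has no such comparison.

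The neuronal context of these differences was given by lists of other genes, each by its brightest probe set. Over all genes by this rule, 8.24% were higher and 7.27% lower in pup hippocampus than in pup heart. Between adult tissues the shares were 10.0% and 10.7%. With age 8.26% were higher and 7.70% lower in hippocampus, and 10.9% and 9.70% in heart. All list counts here and below are to be read beside these shares. Of 16 neuronal marker genes, 9 were higher in hippocampus at each age, 7 were lower and 1, Snap25, was higher in adult than in pup hippocampus, and with age in heart 0 passed the limma threshold, with 2 higher and 2 lower at an unadjusted p under 0.05. The genes that fell most in adult hippocampus were Stmn2 (-3.16 ± 0.30), a microtubule regulator of growing axons, Gap43 (-2.44 ± 0.32), a growth cone protein, Elavl3 (-2.44 ± 0.27), a neuronal RNA-binding protein, and Tubb3 (-2.28 ± 0.34), a neuronal tubulin. The mean over the 16 genes was between 12.90 and 13.02 in pup hippocampus, 12.21 and 12.27 in adult hippocampus, 10.34 and 10.63 in pup heart, and 10.29 and 10.33 in adult heart. With age in hippocampus, where probe sets of Syt1 and Syt11 fell, 8 of the 16 genes were uncalled, and the mean, which was not tested, was 12.94 in pups and 12.24 in adults, while in heart, where Syt1 1433884_at rose, the neuronal mean was 10.46 in pups and 10.31 in adults. Their part in the synaptotagmin differences was not tested.

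Of 16 measured genes of the synaptic fusion machinery, 7 were higher in hippocampus at each age, 1 was higher and 4 lower in adult than in pup hippocampus, and 2 were lower in adult than in pup heart, with the others uncalled. In pups the largest tissue differences were those of Rab3c (6.63 ± 0.21), a vesicle GTPase, Stx1a (5.15 ± 0.28), a plasma membrane SNARE, Unc13a (4.99 ± 0.28), a vesicle priming factor, and Napb (4.52 ± 0.28), a factor of SNARE disassembly. With age in hippocampus Stx1a (-3.69 ± 0.31), Rab3c (-2.15 ± 0.23), Unc13a (-1.41 ± 0.31) and Napb (-1.13 ± 0.31) fell, while Snap25 rose by 1.26 ± 0.30. In heart Vamp2, the vesicle SNARE, fell by 2.48 ± 0.46 and Cplx2, a complexin that clamps and promotes fusion, by 1.84 ± 0.28.

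Of 18 synaptic vesicle genes, 9 were higher in hippocampus in pups, and 6 were higher and 1 lower in adults. With age 3 were lower in hippocampus, Atp6v0a1 (-2.81 ± 0.26), a subunit of the vesicle proton pump, Sv2b (-2.45 ± 0.43), a vesicle glycoprotein, and Syngr1 (-1.52 ± 0.30), a membrane protein of the vesicle. In heart 4 were higher, Syn1 (2.40 ± 0.49) and Syn3 (1.10 ± 0.32), which tether vesicles to actin, Synpr (1.87 ± 0.25) and Syngr1 (1.00 ± 0.30). Syngr1, like Syt1 1433884_at, was thus lower with age in hippocampus and higher in heart.

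**Figure D5:**
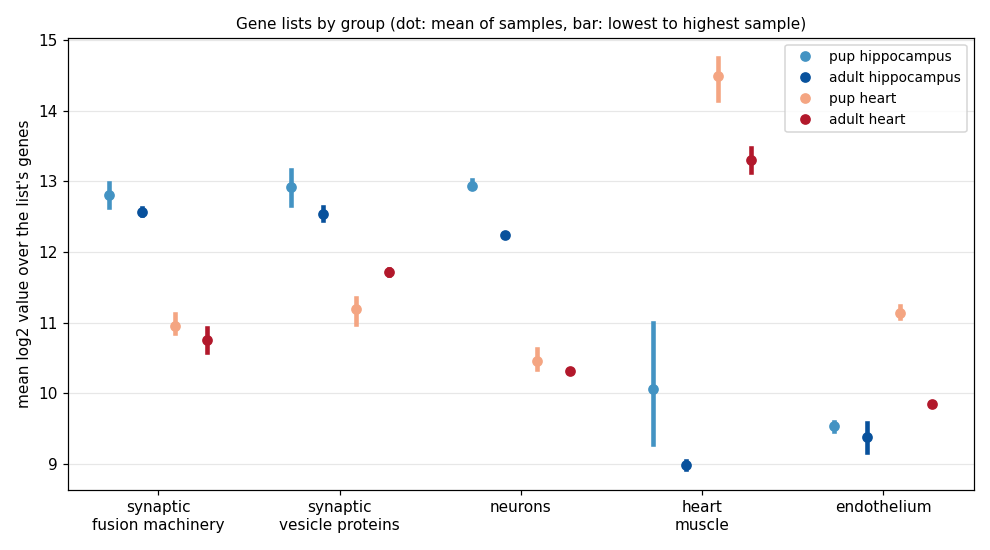
Mean log2 value over the brightest probe sets of 5 gene lists by group, where the dot is the mean of the samples and the bar runs from the lowest to the highest sample. The 16 neuronal genes are at 12.94 in pup and 12.24 in adult hippocampus, and the 12 heart muscle genes at 14.49 and 13.30 in pup and adult heart.

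Of 20 measured genes listed as family relatives, 5 were higher and 1 lower in pup hippocampus than in pup heart, and 4 were higher and 3 lower in adults. Doc2b, a soluble high-affinity Ca2+ sensor of spontaneous release, was the only one called with age in hippocampus, where it fell by 2.52 ± 0.36, and it was higher in hippocampus than in heart by 3.43 ± 0.32 in pups and 1.24 ± 0.39 in adults. In pups Syt16 (3.11 ± 0.47), Rph3a (3.09 ± 0.63), a Rab3 effector, and Syt13 (1.39 ± 0.32) were also higher in hippocampus. In heart 3 relatives were higher in adults, including Esyt3 (1.96 ± 0.39), an extended synaptotagmin, and Dysf (1.20 ± 0.29), the membrane repair protein dysferlin, and 2 were lower, including Sytl2 (-1.80 ± 0.24), a Rab27 effector. The 3 relatives lower in adult hippocampus than in adult heart were Esyt3 (-1.80 ± 0.43), Rph3al (-1.40 ± 0.41) and Syt10 (-1.33 ± 0.35). Syt10 is a synaptotagmin outside the 10 described here.

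Lists for other secretory routes and cell types were mixed. Of 16 dense core vesicle genes and markers of neuroendocrine cells, 7 were higher and 1 lower in pup hippocampus, and 5 were higher in adult hippocampus, while 1 was higher with age in hippocampus and 1 was higher and 2 lower with age in heart. The cargo protein chromogranin B (Chgb) was higher in hippocampus by 5.15 ± 0.27 in pups and 4.41 ± 0.34 in adults. Of 18 genes of constitutive exocytosis, 2 were higher and 4 lower in pup hippocampus than in pup heart, and 4 and 1 in adults, with 3 higher and 1 lower with age in hippocampus and 1 and 3 in heart.

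Of 12 heart muscle genes, 11 were lower in pup hippocampus and 9 in adult hippocampus than in heart, while 2 were lower in adult than in pup hippocampus (Actc1, -4.11 ± 0.95, and Myh6, -3.15 ± 0.65) and 5 in adult than in pup heart. Without pup hippocampus replicate 1, which had most heart muscle signal, the number of synaptotagmin probe sets past the threshold was 6 between pup tissues and 1 with age in hippocampus. The same counts, 6 and 1, were found without pup hippocampus replicate 2 and without replicate 3, which had less of this signal. Every pup hippocampus sample had a higher heart muscle mean than the adult hippocampus samples, so leaving out 1 does not remove the signal. Each of these fits also had fewer samples, and the part of the heart muscle signal in the calls was not tested. Over all probe sets, leaving out replicate 1 took the calls from 6437 to 4368 between pup tissues and from 6709 to 4696 with age in hippocampus. Leaving out replicate 2 gave 4336 and 4082 calls in the same order, and leaving out replicate 3 gave 4803 and 3600. Of 8 endothelial genes, 4 were lower in adult than in pup heart, led by Cdh5 (-3.43 ± 0.26) and Kdr (-3.28 ± 0.45), and 4 were lower in pup hippocampus than in pup heart. Between tissues 3 of 9 oligodendrocyte genes were higher and 1 lower in hippocampus at each age, 4 of 8 astrocyte genes were higher at each age with 1 lower in pups, and 1 of 8 microglia and macrophage genes was lower in pups and 2 in adults.

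The 5 probe sets most like the brightest Syt1 probe set, 1421990_at, were sought among 34941 with another single gene. Likeness was the mean absolute difference across the 10 samples, after centring each probe set on the mean of its 4 group means. The nearest to 1421990_at were those of Nfya (0.18), Pam (0.20), Fau (0.23), Ulk1 (0.24) and Zfp572 (0.24). For 1433884_at, taken up after its values were seen, the nearest were those of Dnajc6 (0.28), Disp2 (0.29), Gria2 (0.30), Lonrf2 (0.30) and Prkar1b (0.34). Dnajc6 (auxilin, which uncoats clathrin-coated vesicles) had age differences of -1.68 in hippocampus and 1.34 in heart and tissue differences of 5.10 in pups and 2.08 in adults. Gria2, an AMPA receptor subunit, had -1.96, 1.16, 4.88 and 1.77 in the same order. These values follow from how the neighbours were chosen.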

How the data were processed

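For each of 14 single-colour arrays the authors deposited a log2 value for 45101 probe sets. They summarized the probes of a set by the upper decile with RMA (version 2.0 per the submitters' processing notes), and any background correction or detection filter is not given in the sources used here. Centring on the median and range scaling, which the methods describe, were not seen in the values and were run as an alternative, and no genome build was needed for the tests. Probe sets were named by the platform annotation, with symbols checked through the Entrez identifier, and 64 array controls were left out. Technical arrays were averaged, giving 10 biological samples. These were fitted with limma 3.58.1 in R 4.3.3 (with statmod 1.5.0) as 4 group means, with 6 residual and 3.73 prior degrees of freedom and two-sided tests, and p-values were adjusted over all 45037 probe sets of a contrast. Precision was limited by how few arrays there were, with a median SE of 0.34 for age, 0.30 for tissue in pups, 0.37 for tissue in adults and 0.48 for the difference between age differences. The script was tested on simulated data. Errors after ± are SE in the text and intervals are 95% intervals of limma. The study's methods used a t-test at a false discovery rate of 0.1%, which was run as an alternative beside other scalings, filters, replicate definitions, probe set choices and leaving out each sample. The genes and gene lists were chosen with earlier results of these data known. All probe sets of the 10 genes were described, the genes named from a list were its up to 4 largest non-overlapping called differences in a contrast, and Snap25, Actc1 and Myh6 were tissue checks. Figures were drawn with matplotlib 3.10.9.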

Additional observations from a re-analysis of the deposited data

Results flagged for a closer look

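Syt1 1433884_at had an age difference in heart that exceeded that in hippocampus by 3.22 on the log2 scale, since it fell in adult hippocampus and rose in adult heart, and the test of the difference itself passed. The other Syt1 probe sets gave -0.87 (1421990_at), -0.87 (1431191_a_at) and -0.22 (1438282_at) in this test, and none passed. Syt4 1415844_at had an age difference in heart that exceeded that in hippocampus by 1.83, and the test of the difference itself also passed. That Syt4 call was lost with the replicate block and without any single pup hippocampus sample. The other Syt4 probe set, 1415845_at, gave -0.60 and did not pass. Age and RNA source cannot be told apart in either the Syt1 or the Syt4 result.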

How the results depend on the processing

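Of 2317 results of single probe sets under an alternative, 2190 kept their side of the threshold, 97 were no longer past it and 30 newly passed it, and no called result of a single probe set changed sign. With age in hippocampus the 2 calls became 4 with the 4 adult arrays as replicates, 4 with the biological sample as a random block and 4 with only the groups of the contrast, while 1 passed with the replicate block and 1 with the methods' t-test, and leaving out 1 sample gave 1 to 3. Over all probe sets these 5 settings called 10275, 9553, 8909, 4422 and 1887 in place of 6709. With age in heart the 5 calls became 2 with only the groups of the contrast and 0 with the methods' t-test, and 1 to 6 without 1 sample, beside 4557 and 1 in place of 9011 over all probe sets. Between tissues the methods' t-test called 4 in place of 8 in pups and 0 in place of 7 in adults, beside 1938 in place of 6437 and 1 in place of 9988 over all probe sets, and without 1 sample the adult count was 3 to 7. For the difference between age differences the 2 calls became 1 with the replicate block, beside 1055 in place of 1600 over all probe sets, and 1 to 2 without 1 sample. By gene, the mean over probe sets in place of the brightest gave 1 in place of 4 with age in heart, 4 in place of 2 between pup tissues, 3 in place of 0 between adult tissues and 0 in place of 1 for the difference between age differences. The most variable probe set gave 2 in place of 0 with age in hippocampus, 4 in place of 2 between pup tissues, 3 in place of 0 between adult tissues and 2 in place of 1 for the difference between age differences. With age in heart it gave 3 in place of 4 and turned Syt1 from -1.74 with the brightest probe set to 1.74 (limma adjusted p = 0.00433), both past the threshold. The cause was not tested. Leaving out an adult sample leaves 1 in its group, which was assumed to vary like the other groups. The labels do not say whether a replicate number marks the same animal in the 2 tissues, so no pairing was used in the main fit. Deviations of same-numbered samples of the 2 tissues correlated at 0.197, -0.084 and 0.006 in pups. Not every pup sample correlated best with its own number. In adults, with 2 samples in each tissue, the 2 values must be equal, and they were -0.055. With so few samples these correlations cannot decide whether the samples were paired.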
